A study of Homo sapiens with 1 sample.

Results

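The genes described here are the ligands and receptors of the 4 classical axon guidance systems. The rule that picks them uses gene symbols and no measured value: every Eph receptor and ephrin, every semaphorin of classes 3 to 7, every plexin, both neuropilins, every Slit, Robo and netrin, DCC and the UNC5 receptors in the deposited gene list. This gave 69 of 33538 genes. They were measured in 1 single-cell RNA-seq (scRNA-seq) library, labelled hHAR123, made from the established human embryonic stem cell (hESC) line H9 with the genotype WT, that is, with the human form of the enhancer HAR123 in place. The cells had been treated with N2 supplement, 1 μM dorsomorphin and 10 μM SB431542 (inhibitors of BMP and of TGF-β/activin signalling), with 5 μM Rock inhibitor in the first 2 days. Embryoid bodies then formed over 5 days under rotation and grew on Matrigel without the inhibitors for 7 days, as a route to neural progenitor cells (NPCs). Per the study's methods, independent clones were pooled and cells were taken before rosettes were picked. Libraries made from edited lines were not analysed here. A single library gives no replicate and no test. All intervals are exact 95% intervals and cover counting error only.

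Growth cones read these cues to choose a path. Ephrins are tied to the membrane and signal at cell contact through Eph receptor tyrosine kinases, in both directions. Most class 3 semaphorins are secreted and act on a neuropilin that binds the ligand and a plexin that passes the signal to the cell, while the transmembrane semaphorins mostly bind plexins directly. Slits repel through Robo receptors. Netrins attract through DCC and repel when UNC5 receptors are present. In the early forebrain the same molecules act before any axon exists, for example in keeping regions of the neuroepithelium apart.

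The deposited table held 14726 barcodes and 327640709 UMIs (unique molecular identifiers, each counting 1 captured RNA molecule). Of these barcodes, 13925 (94.6%) passed the limits of 2000 to 10000 detected genes and a mitochondrial share below 0.1. Kept cells had a median of 17900 UMIs, from 3167 to 118188. Clusters were built with all 69 members left out of the genes used, so that the level of a member did not help to form the class it is compared in. Clusters were then named from marker lists. The forebrain NPC-like class held 11949 cells in 7 clusters. The contractile NPC-like class held 1869 cells, with 4368 CPM (counts per 1000000 UMIs) of the actin-binding gene TAGLN against 338 CPM in the forebrain class. In each of its clusters 4 of 10 progenitor markers and 3 of 11 forebrain markers reached 50 CPM. NES (639 against 230 CPM) and VIM (4032 against 853) were higher than in the forebrain class and SOX3 was level. The other progenitor markers were lower, among them HES5 (10.9 against 190 CPM), SOX1 (9.58 against 61.8) and FABP7 (58.0 against 505). The differentiating-progenitor-like class held 107 cells, with 2351 CPM of the neuronal gene STMN2 against 12.2 CPM. Over all kept cells 10 of 10 neural progenitor markers and 6 of 11 forebrain markers reached 20 CPM. Of 7 pluripotency markers 3 did so, LIN28A at 224, DPPA4 at 111 and L1TD1 at 70.9 CPM. The pluripotency factors POU5F1 and NANOG stood at 0.0953 and 0.318 CPM. Contractile cells were deeper, with a median of 45580 UMIs against 16846 in the forebrain class and 13557 in the differentiating class. Shares of UMIs (CPM) and UMIs per cell can therefore differ in direction. Ratios below are by CPM unless UMIs per cell are named.

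Every member had at least 1 UMI, and 55 of the 69 had at least 1000. Together they took 1103287 UMIs, or 0.351% of all. After each cell was thinned to 5000 UMIs, which left out 28 shallower cells, 29 members were found in at least 10% of cells. Members with few UMIs were the netrin NTN3 with 9 and the plexin PLXNB3 with 5. The counting software (Cell Ranger 7.0.1 at default settings) includes reads from introns, so long genes can collect more UMIs. Gene spans ran from 2.849 kb to 1743.27 kb, and across the 69 members the log of UMIs and the log of span had a correlation of 0.563, given as a description across genes of 1 library. A share of UMIs within a family is for that reason given beside the level per kb of span.

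Ephrins and Eph receptors were found in most cells. EFNA5, an A-class ephrin anchored by a lipid tail (chr5:107376894-107670937, minus strand, GRCh38), gave 77.1% of all ephrin UMIs and stood at 655 CPM in forebrain, 597 CPM in contractile and 812 CPM in differentiating cells. Per kb of span, however, the shorter B-class ephrin EFNB1 was above it, at 4.80 against 2.18 CPM per kb over all kept cells. Among the Eph receptors, EPHA4, a receptor for ephrins of both classes (chr2:221418027-221574202), gave 43.2% of the UMIs and stood at 1.87 CPM per kb. Only 4.61% of thinned cells had no ephrin UMI and 6.79% had no Eph UMI, whereas 79.3% had no netrin UMI. SEMA6A, a transmembrane semaphorin that binds A-class plexins (chr5:116443555-116574823), gave 45.9% of semaphorin UMIs. Its level per kb was 2.92 CPM.

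In the other families the gene with the most UMIs was not always the highest per kb. ROBO1 gave 77.4% of Robo UMIs but stood at 0.183 CPM per kb, below the short gene ROBO3 at 0.244. UNC5D gave 39.6% of the UMIs of DCC and the UNC5 receptors and stood at 0.296 CPM per kb, below UNC5C at 0.332. NRP1 gave 16.6% of plexin and neuropilin UMIs and stood at 0.199 CPM per kb, below PLXNB1 at 0.924. SLIT2, with 87.5% of Slit UMIs, was the highest Slit per kb too, at 0.538 CPM per kb. The netrin NTN4, with 53.0% of netrin UMIs, stood at 0.196 CPM per kb and NTN1, the classical DCC ligand, at 0.102. The plot of levels by class shows that DCC, EPHA3, SLIT1 and SEMA3C were among the genes whose levels lay farthest apart between classes.

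**Figure D1:**
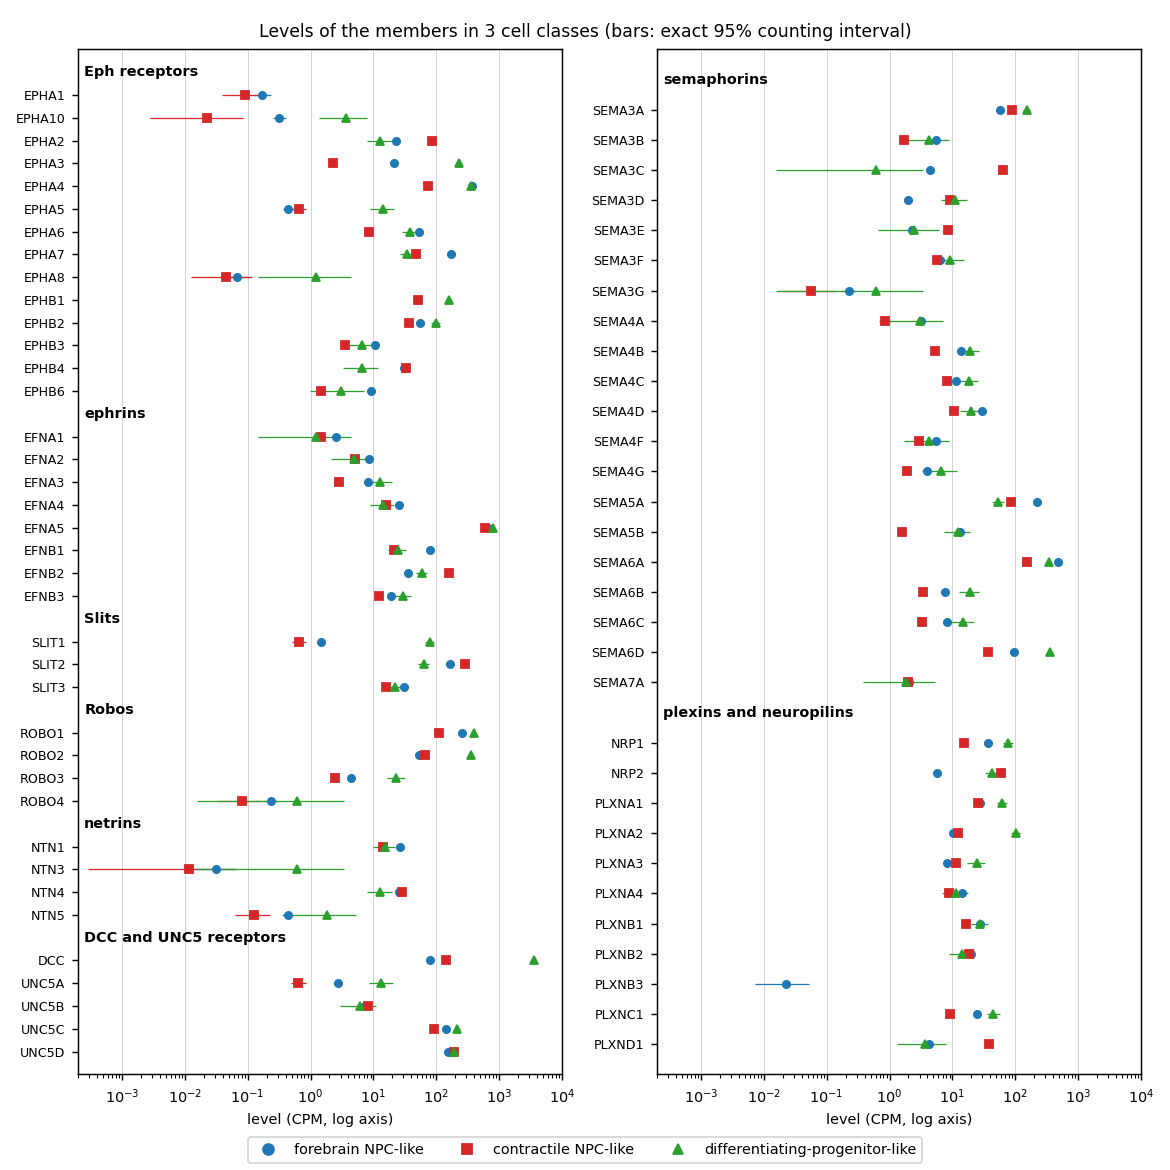
Level of each of the 69 members (CPM, log axis) in forebrain NPC-like (blue circles), contractile NPC-like (red squares) and differentiating-progenitor-like cells (green triangles), with exact 95% counting intervals; a member with no UMI in a class has no point there. DCC stood at 3595 CPM in differentiating cells against 80.7 in forebrain cells, and SEMA3C at 64.9 CPM in contractile against 4.48 in forebrain cells.

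In contractile cells SEMA3C, SEMA3D and SEMA3E, 3 of the 7 class 3 semaphorins, were higher than in forebrain NPC-like cells, as were the receptors NRP2, PLXND1 and EPHA2 and the ephrin EFNB2. Other members, SEMA3B, SEMA3G and NRP1 among them, took a lower share of UMIs. A gene was counted as higher at a ratio of CPM of at least 2 and as lower at a ratio of at most 0.5, if its overall level predicted at least 10 UMIs in the smaller class. Of the 69 members, 66 had enough UMIs. Of these, 7 were higher (10.6%, against 8.2% of all 21411 genes with enough UMIs) and 28 were lower (42.4%, against 24.5% of all genes). The median ratio of members was 0.576 and that of all genes 0.771. The share of higher members is near that of all genes. The share of lower members is above it.

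The secreted ligand SEMA3C (chr7:80742538-80922359, minus strand) stood at 64.9 CPM in contractile cells (5675 UMIs) and 4.48 CPM in forebrain cells (1010 UMIs), a ratio of 14.5 (13.6 to 15.5). NRP2, a neuropilin that binds SEMA3C (chr2:205681990-205798133), stood at 60.3 against 5.63 CPM, a ratio of 10.7 (10.1 to 11.4). PLXND1, a plexin that binds SEMA3E directly and serves neuropilin-bound SEMA3C as well (chr3:129555214-129606676), stood at 38.6 against 4.29 CPM, a ratio of 9.02 (8.39 to 9.70). A ligand, its binding receptor and its signalling receptor were thus all in this set. After thinning to 5000 UMIs, SEMA3C was found in 19.9% of contractile cells (18.2 to 21.8) and 1.85% of forebrain cells, NRP2 in 19.0% and 2.38%, and PLXND1 in 14.7% and 1.93%. Without thinning the shares for SEMA3C were 61.6% and 5.75%.

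The other secreted semaphorins of the set were less abundant. SEMA3D stood at 9.11 against 1.98 CPM and SEMA3E at 8.56 against 2.26 CPM, ratios of 4.60 and 3.78. SEMA3E was not particular to contractile cells. It stood at 9.41 CPM in forebrain cluster 7 and 8.10 CPM (16 UMIs) in forebrain cluster 9, and at 0.603 to 2.26 CPM in the other forebrain clusters. The transmembrane ephrin EFNB2 stood at 161 against 35.8 CPM, a ratio of 4.50 (4.37 to 4.62), while the receptor EPHB4, its main partner in vessels, was level at 33.0 against 31.0 CPM. EPHA2, an Eph receptor of epithelia and of early embryonic cells, stood at 85.5 against 22.5 CPM, a ratio of 3.80 (3.66 to 3.94). In forebrain clusters 9 and 7 EPHA2 stood at 59.3 (117 UMIs) and 42.3 CPM, and at 11.2 to 23.8 CPM in the others. Its usual ligand EFNA1 stood at 1.45 against 2.50 CPM. The 7 genes were at least 2-fold higher after thinning too. By UMIs per cell every gene has a ratio larger by the same factor, so the 7 pass 2-fold there by construction. Endothelial markers, which mark a cell type known for PLXND1, EFNB2 and NRP2, summed to 35.6 CPM in contractile and 23.9 CPM in forebrain cells over 9 genes, none at 0 in either class. CDH5 stood at 2.23 against 0.541 CPM, TEK at 12.3 against 3.21, ERG at 1.03 against 0.341 and KDR at 17.6 against 14.9. PECAM1 was level at 0.332 against 0.328 CPM. VWF (0.435 against 1.68 CPM), CLDN5 (0.206 against 0.802), TIE1 (0.858 against 1.25) and EMCN (0.595 against 0.824) were lower. Neural crest markers summed to 83.4 and 17.6 CPM over 8 genes, with DCN at 0 in contractile cells. COL1A2 made most of that sum, at 64.2 against 7.08 CPM. TWIST1 (2.76 against 0.186 CPM), LUM (5.46 against 1.01) and PRRX1 (9.64 against 7.63) were higher too. PDGFRA (1.14 against 1.18) and TFAP2B (0.0572 against 0.0620) were near level, while TFAP2A stood at 0.103 against 0.341 CPM. Epithelial markers summed to 657 against 150 CPM over 7 genes, with KRT5 at 0 in both classes and KRT14 at 0 in contractile cells. KRT8 stood at 270 against 71.3 CPM and KRT18 at 381 against 73.2, while EPCAM stood at 3.89 against 4.78 and CDH1 at 0.229 against 0.173. The part of these markers in the result was not tested.

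The neuropilins went in opposite directions on this scale. NRP1, the partner of SEMA3A, stood at 15.4 CPM in contractile and 37.5 CPM in forebrain cells, a ratio of 0.411 (0.388 to 0.435), though by UMIs per cell the ratio was 1.02. SEMA3A itself stood at 90.4 against 57.0 CPM. The A-class plexins, which pass on SEMA3A and class 6 signals, differed little: PLXNA1 at 25.9 against 27.3 CPM, PLXNA2 at 12.2 against 10.3, PLXNA3 at 11.5 against 8.23 and PLXNA4 at 8.87 against 14.4. PLXNB1 and PLXNB2, receptors for class 4 semaphorins, had ratios of 0.611 and 0.952.

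Of 13 tested Eph receptors 7 were lower, where 24.5% of all genes were. EPHA4 stood at 73.2 CPM in contractile cells and 377 CPM in forebrain cells, a ratio of 0.194 (0.189 to 0.199). In thinned cells it was found in 26.2% and 79.6%. EPHA3 stood at 2.28 against 21.2 CPM (ratio 0.107) and EPHA6 at 8.40 against 53.5 CPM (0.157). EPHA7 stood at 48.1 against 172 CPM (0.280), and EPHB3 and EPHB6 had ratios of 0.332 and 0.157. EPHA10 rested on 2 UMIs in contractile cells (ratio 0.0717, 0.00852 to 0.269). EPHB1 (0.998) and EPHB2 (0.669) were not counted as lower, and EPHA5 had a ratio of 1.47 from 57 UMIs. Among ephrins, EFNB1 was lower at 21.3 against 79.5 CPM (0.268). EFNA3 was lower too (0.350), but part of its reads may belong to the readthrough gene EFNA4-EFNA3. EFNA4 (0.622), EFNA2 (0.589) and EFNB3 (0.644) lay between the limits.

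Of 20 tested semaphorins 12 were lower, where 24.5% of all genes were. Of these 12, 10 carry a membrane anchor, as most of the tested semaphorins do. SEMA6A stood at 154 against 473 CPM, a ratio of 0.325 (0.319 to 0.331), and thinned cells held it in 46.0% and 81.3%. SEMA5B had the lowest ratio of the family, 0.119 (1.56 against 13.1 CPM), and SEMA5A stood at 84.9 against 221 CPM (0.384). SEMA6D (0.384), SEMA6C (0.397), SEMA4A (0.268), SEMA4B (0.377) and SEMA4D (0.361) were in the same range, with SEMA6B (0.444) and SEMA4G (0.471) nearer to the limit. Of the secreted class, SEMA3B (0.316) was lower, and SEMA3G (0.253) rested on 5 UMIs. SEMA4C (0.722), SEMA4F (0.543), SEMA3F (0.893) and SEMA7A (0.986) were not counted. PLXNC1, the receptor of SEMA7A, was lower at 9.24 against 24.4 CPM.

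In the Slit and netrin systems the ligand and its receptor differed unequally. SLIT2 stood at 287 CPM in contractile and 165 CPM in forebrain cells (ratio 1.74), while ROBO1 stood at 110 against 254 CPM (0.431) and ROBO2 at 66.3 against 53.5 CPM (1.24). By UMIs per cell ROBO1 had a ratio of 1.07. SLIT3 (0.520) was just above the limit, SLIT1 (0.448) and ROBO4 (0.348) were lower from 58 and 7 UMIs, and ROBO3 had a ratio of 0.572. DCC stood at 141 against 80.7 CPM (1.74) and UNC5D at 195 against 155 CPM (1.26), whereas UNC5A was lower at 0.641 against 2.75 CPM and UNC5C stood at 92.9 against 142 CPM. UNC5B had a ratio of 1.11. NTN1 stood at 14.4 against 26.1 CPM and NTN4 at 28.9 against 25.2 CPM, and NTN5 was lower from 11 UMIs.

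Because contractile cells held more UMIs, the counts depend on the scale. By UMIs per cell 24 of the 66 members were at least 2-fold higher and 6 at most 0.5-fold, against 46.6% and 4.37% of all genes. The median ratio of all genes moved from 0.771 to 1.91 and that of members from 0.576 to 1.43. This change of scale multiplies every ratio by the same factor and keeps the order of genes. The 42 of 66 members below the median of all genes are therefore the same on each scale by construction. Of the 28 members lower by CPM, 23 were also below 1 by UMIs per cell. The exceptions were NRP1, ROBO1, SEMA6B, SLIT1 and SEMA4G, with ratios per cell from 1.02 to 1.17. Over all 66 members 18 had a ratio above 1 by CPM and 43 by UMIs per cell. Among those between the limits by CPM, the ratio per cell was 2.26 for EFNA5, 1.44 for EFNA1, 1.66 for EPHB2, 1.62 for UNC5C, 1.36 for NTN1, 1.29 for SLIT3 and 1.51 for PLXNB1. Lower members were found in each range of span, but their excess over all genes lay below 200 kb. Under 50 kb 12 of 28 were lower, against 23.2% of all genes, and from 50 to 200 kb 11 of 18, against 24.9%. At 200 kb or more 5 of 20 were lower, against 31.6%, with a median ratio of 0.790 against 0.698 for all genes.

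**Figure D2:**
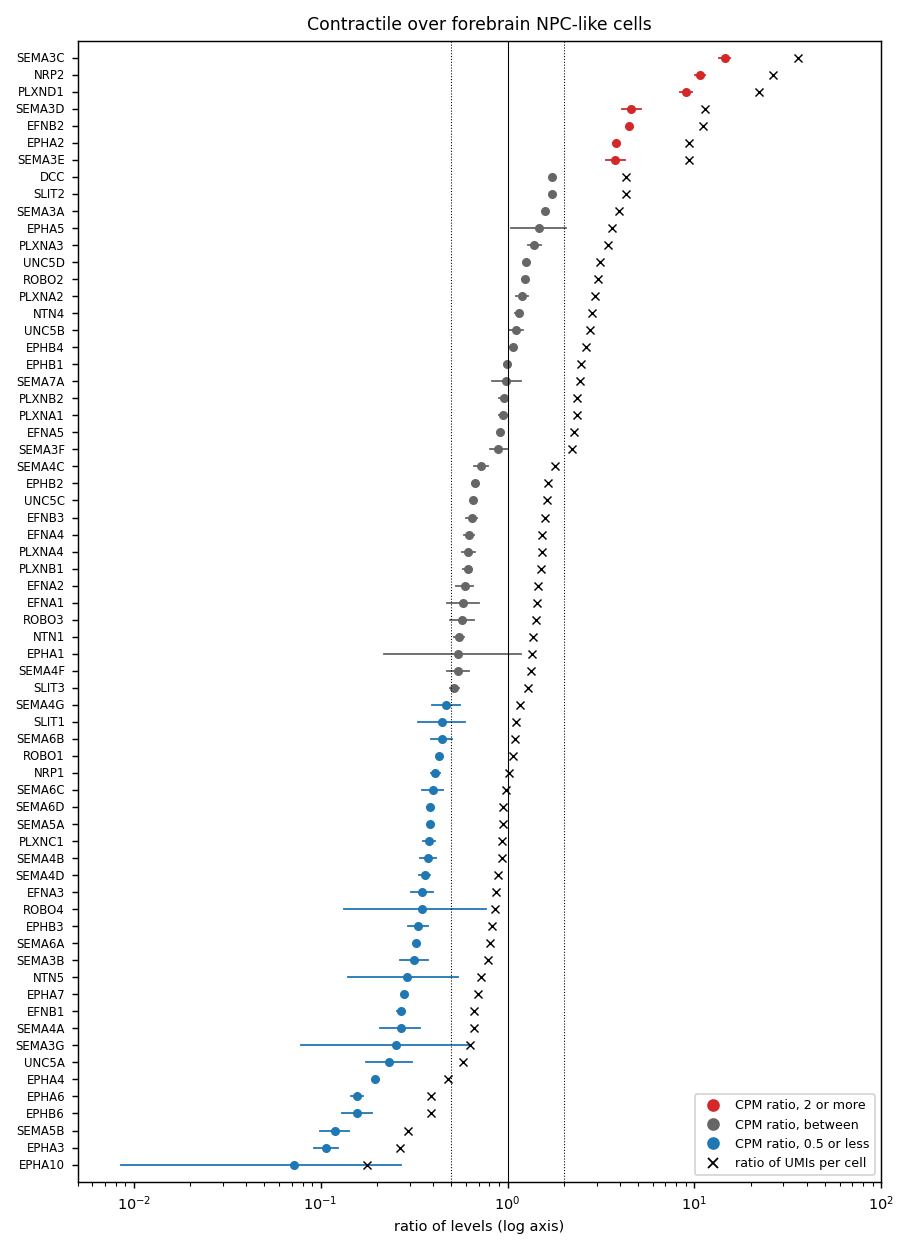
Contractile over forebrain ratio of levels (log axis) for the 66 members with enough UMIs, as CPM (points with exact 95% counting intervals) and as UMIs per cell (crosses); dotted lines mark ratios of 0.5 and 2. Every cross is its point times the same factor, so members above 2 by CPM are above 2 by UMIs per cell by construction. SEMA3C, NRP2, PLXND1, SEMA3D, EFNB2, EPHA2 and SEMA3E lie above 2 by CPM, and EPHA4, EPHA6, EPHB6, SEMA5B, EPHA3 and EPHA10 lie below 0.5 on both scales.

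The start regions of a ligand and of receptors among the 7 higher members are shown. RefSeq held promoters for 59 of the 69 members, in 91 windows on GRCh38.p14. Each window below is the 250 bases before the start, 5′ to 3′ on the strand of the gene, with capitals for a match to the TEAD core GGAATG on either strand. TEAD factors act with YAP on cytoskeletal tension.

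SEMA3C (chr7:80922390-80922639, minus strand): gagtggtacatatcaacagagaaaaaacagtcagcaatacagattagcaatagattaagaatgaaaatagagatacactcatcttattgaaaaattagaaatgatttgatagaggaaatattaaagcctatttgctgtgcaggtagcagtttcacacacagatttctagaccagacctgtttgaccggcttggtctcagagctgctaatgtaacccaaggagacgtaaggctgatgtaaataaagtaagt
PLXND1 (chr3:129606677-129606926, minus strand): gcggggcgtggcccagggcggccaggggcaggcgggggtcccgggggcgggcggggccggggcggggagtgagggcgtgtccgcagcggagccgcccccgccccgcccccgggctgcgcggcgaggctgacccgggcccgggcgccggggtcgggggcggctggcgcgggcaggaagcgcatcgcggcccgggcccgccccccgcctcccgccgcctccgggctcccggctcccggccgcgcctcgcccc
EPHA2 (chr1:16156070-16156319, minus strand): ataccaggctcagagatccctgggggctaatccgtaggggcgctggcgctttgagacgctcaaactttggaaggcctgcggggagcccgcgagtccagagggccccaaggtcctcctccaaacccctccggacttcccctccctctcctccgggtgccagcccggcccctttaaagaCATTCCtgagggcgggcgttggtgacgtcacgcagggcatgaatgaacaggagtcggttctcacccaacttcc

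The windows had little in common in composition. G and C made 36.4% of the SEMA3C window and 88.8% of the PLXND1 window, against a median of 58% over all 35116 promoters and 65.2% over those of members. Of the 7 genes higher in contractile cells, EPHA2 alone held the TEAD core, 73 bases before its start, and none held the AP-1 letters TGANTCA. The shares of all promoters holding these letters were 11.9% and 6.57%. A match is a description of the letters and not a bound site.

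Differentiating-progenitor-like cells carried 1 or more receptors of every guidance system at a higher level, DCC foremost. Eph receptors were split, with 2 of 10 tested higher and 3 lower, at a median ratio of 0.668. Of 49 members with enough UMIs, 12 were higher than in forebrain NPC-like cells (24.5%, against 6.14% of all 11355 genes tested) and 7 were lower (14.3%, against 14.5% of all genes). The median ratio was 1.24 for members and 0.901 for all genes. The share of higher members is above that of all genes, while the share of lower members is not. By UMIs per cell 10 were higher and 12 lower, against 3.96% and 22.2% of all genes, and NRP1 and PLXNA1 were no longer among the higher ones. The 5 members added to the lower ones were EPHA2 (0.462), EFNA2 (0.459), EFNA4 (0.443), NTN1 (0.474) and NTN4 (0.413). NRP2, SEMA3C and PLXND1 reached the minimum of UMIs only through contractile cells. With the minimum set from the compared cells alone, an alternative added after the data were seen, 11 of 46 members were higher and 6 lower, against 5.95% and 14.1% of all genes. Of the 12 higher members, 9 were receptors (DCC, EPHA3, EPHB1, ROBO2, NRP1, NRP2, PLXNA1, PLXNA2 and PLXNA3) and 3 were semaphorins. The receptors among the 49 tested were 10 Eph receptors, 10 plexins and neuropilins, 4 of DCC and the UNC5 receptors and 2 Robos.

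DCC, the netrin receptor of crossing and forward-growing axons (chr18:52340197-53535899), stood at 3595 CPM in the 107 differentiating cells (5914 UMIs), 80.7 CPM in forebrain and 141 CPM in contractile cells. The ratio over forebrain cells was 44.5 (43.2 to 45.9). Across the 107 cells DCC ran from 70.9 CPM through a median of 3267 to 13859 CPM, and each cell had at least 1 UMI. Among forebrain cells the median was 0 and the upper quartile 90.6 CPM, but the highest cell reached 5577 CPM, so single cells overlap. After thinning, DCC was found in 98.1% of differentiating (93.4 to 99.8), 22.1% of forebrain and 33.8% of contractile cells. The share of UMIs from RNA outside cells was not measured here. The DCC ligand NTN1 stood at 15.2 against 26.1 CPM and the netrin NTN4, which acts mainly through other partners, at 12.8 against 25.2 CPM, both between the limits. DRAXIN, another secreted DCC ligand from the pathway list, was higher at 67.5 against 15.8 CPM, a ratio of 4.27 (3.50 to 5.15).

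Of the Robo receptors, ROBO2 was higher as well. It (chr3:75906695-77649964) stood at 353 against 53.5 CPM, a ratio of 6.60 (6.06 to 7.17), and was found in 55.7% of thinned differentiating and 18.6% of thinned forebrain cells. ROBO3, which modulates Slit responses before midline crossing, stood at 23.1 CPM (38 UMIs) against 4.33 CPM, and ROBO1 at 402 against 254 CPM (ratio 1.58). SLIT1 (chr10:96998038-97185959) stood at 78.4 CPM (129 UMIs) against 1.48 CPM in forebrain cells, with 20.8% and 0.645% of thinned cells. Its ratio of 53.0 (42.9 to 65.1) is above that of DCC, but SLIT1 and ROBO3 had too few UMIs overall to enter the counts, and the span of SLIT1 overlaps the readthrough gene ARHGAP19-SLIT1. SLIT2 went the other way, at 63.8 against 165 CPM (0.387), and SLIT3 stood at 21.9 against 30.7 CPM.

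Among Eph receptors, EPHA3 (chr3:89107621-89482134) stood at 231 against 21.2 CPM, a ratio of 10.9 (9.77 to 12.1). The forebrain clusters were unequal: cluster 6 stood at 129 CPM of EPHA3 and the others at 5.37 to 20.6 CPM. It was uneven: 51 of the 107 cells had an EPHA3 UMI, and the 10 cells with the most held 54.5% of its UMIs. EPHB1 stood at 160 against 50.5 CPM (ratio 3.18) and EPHB2 at 97.9 against 55.7 CPM (1.76). EPHA5, mostly a receptor of differentiated neurons, stood at 14.0 CPM (23 UMIs in 13 cells) against 0.443 CPM, outside the counts. EPHA4 was level at 360 against 377 CPM, and EPHA6 (0.704), EPHA2 (0.567) and EPHB3 (0.632) lay between the limits. EPHA7 was lower at 34.6 against 172 CPM (0.202), as were EPHB4 at 6.69 against 31.0 CPM (0.216) and EPHB6 from 5 UMIs (0.327). EPHA1 and PLXNB3 had 0 UMIs in the class, which, with 3 counts taken as the limit, allows up to 1.82 CPM. Most ephrins lay between the limits, on either side of 1: EFNA5 at a ratio of 1.24, EFNB2 at 1.66, EFNB3 at 1.57, EFNA3 at 1.55, EFNA2 at 0.564 and EFNA4 at 0.544. EFNB1, which is high in dividing neural progenitors, was lower at 24.3 against 79.5 CPM (0.306).

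All neuropilins and A-class plexins but PLXNA4 were higher. PLXNA2 stood at 102 against 10.3 CPM, a ratio of 9.89 (8.40 to 11.6), with 31.1% and 4.56% of thinned cells. NRP2 stood at 41.9 against 5.63 CPM (7.45, 5.76 to 9.50) and NRP1 at 76.6 against 37.5 CPM (2.04, 1.70 to 2.44). PLXNA1 (2.27, 1.85 to 2.77) and PLXNA3 (2.96) were also higher. The intervals of NRP1 and PLXNA1 cross the limit, and in thinned cells their ratios were 1.89 and 1.79. PLXNA4 stood at 11.5 against 14.4 CPM. PLXNC1 had a ratio of 1.84, PLXNB1 1.01 and PLXNB2 0.718. PLXND1, at 3.65 CPM from 6 UMIs, was far below its level of 38.6 CPM in contractile cells.

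The ligands of these plexins were split. SEMA6D, which binds PLXNA1, stood at 354 against 95.2 CPM, a ratio of 3.72 (3.42 to 4.04). SEMA3A stood at 151 against 57.0 CPM (2.66). SEMA6B stood at 18.8 against 7.65 CPM (2.46) from 31 UMIs, and its interval of 1.67 to 3.51 crosses the limit of 2. SEMA6C (1.75), SEMA4C (1.58), SEMA3F (1.44) and SEMA4B (1.36) were between the limits, as were SEMA5B (0.930), SEMA6A (0.719) and SEMA4D (0.669). SEMA3D (18 UMIs, 10.9 against 1.98 CPM) and SEMA4G (11 UMIs) were under the minimum for the counts. SEMA5A was lower at 52.9 against 221 CPM (0.239). SEMA3C, the member with the highest ratio in contractile cells, had 1 UMI in differentiating cells, a ratio of 0.136 to forebrain cells (0.00343 to 0.758), and is among the genes that passed the minimum only through contractile cells. Of the UNC5 receptors, 3 lay between the limits, UNC5C at 218 against 142 CPM, UNC5D at 193 against 155 CPM and UNC5B at 6.08 against 7.32 CPM. UNC5A stood at 13.4 CPM (22 UMIs) against 2.75 CPM, outside the counts.

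**Figure D3:**
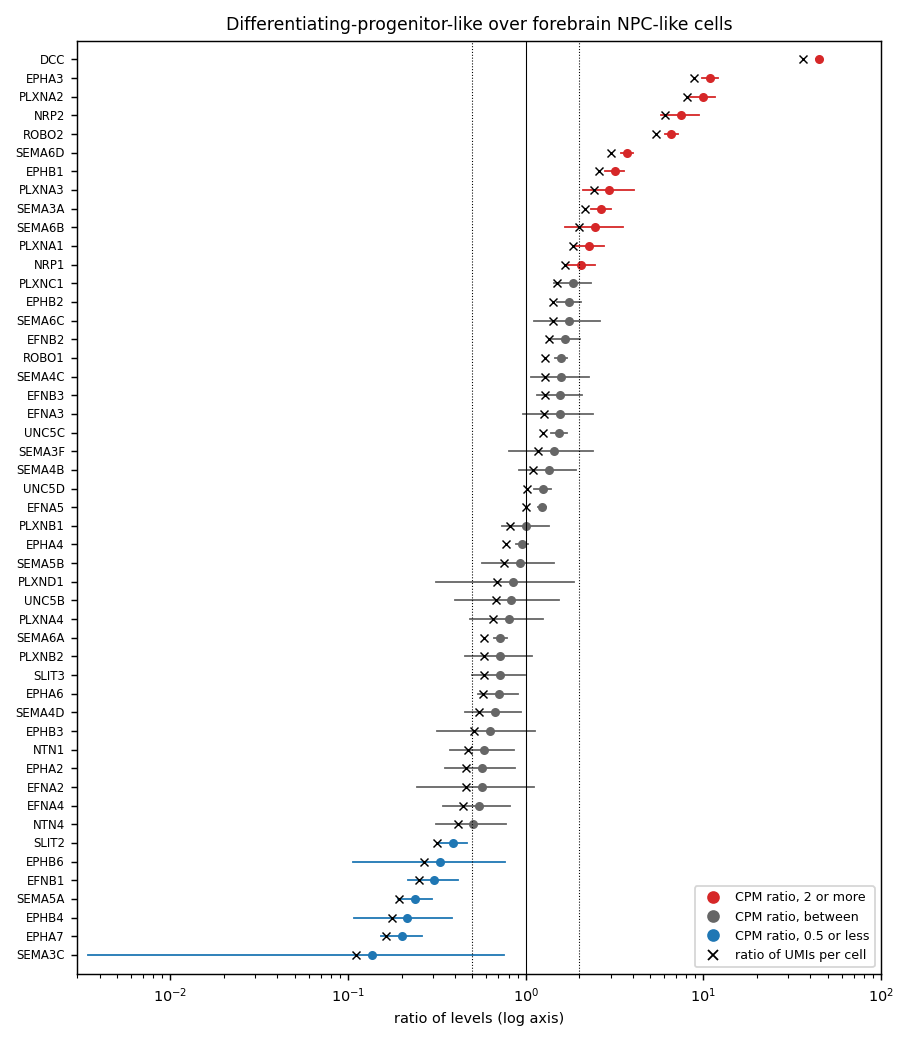
Differentiating over forebrain ratio of levels (log axis) for the 49 members with enough UMIs, as CPM (points with exact 95% counting intervals) and as UMIs per cell (crosses); dotted lines mark ratios of 0.5 and 2. DCC lies apart at 44.5, followed by EPHA3 at 10.9 and PLXNA2 at 9.89, and SEMA3C, which reached the minimum only through contractile cells, has the lowest ratio, from 1 UMI.

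The genes higher in differentiating cells were often long. Of members with a span of 200 kb or more, 7 of 18 were higher, against 16.7% of all tested genes of that span, and of those under 50 kb 2 of 17, against 3.79%. Cajal-Retzius markers, a list for an early reelin-producing neuron type, summed to 954 CPM in the 107 cells and 23.9 CPM in forebrain cells over 9 genes. EBF2 stood at 419 CPM, RELN at 128 CPM and TBR1 at 110 CPM in the 107 cells, CALB2 at 2.43 CPM and TP73 at 0. The intermediate progenitor and neuronal genes EOMES and NEUROD1 stood at 178 and 179 CPM. The part of cell type mixture and of gene span in the result was not tested. The start regions of DCC and EPHA3 are shown with capitals for the E-box letters CAGCTG and CAGATG on either strand, which proneural factors bind.

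DCC (chr18:52339947-52340196, plus strand): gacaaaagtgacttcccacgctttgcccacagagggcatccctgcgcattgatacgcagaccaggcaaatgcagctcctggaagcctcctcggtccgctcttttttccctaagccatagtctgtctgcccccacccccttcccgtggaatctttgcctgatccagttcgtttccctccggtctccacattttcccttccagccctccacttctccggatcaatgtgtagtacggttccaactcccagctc
EPHA3 (chr3:89107371-89107620, plus strand): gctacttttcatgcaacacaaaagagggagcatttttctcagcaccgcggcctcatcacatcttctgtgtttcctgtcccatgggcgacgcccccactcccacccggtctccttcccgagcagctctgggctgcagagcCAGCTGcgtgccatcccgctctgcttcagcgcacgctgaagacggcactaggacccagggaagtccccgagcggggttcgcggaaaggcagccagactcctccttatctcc

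Of the 9 higher genes with a RefSeq promoter, EPHA3 held CAGCTG, 111 bases before its start, and none held CAGATG. Over all promoters these shares were 14% and 12.2%, and 13.2% and 8.79% over the windows of members. The letters were thus no more frequent in the promoters of members than in all promoters.

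Few members passed the limits between forebrain NPC-like cells with high and low levels of mitotic genes. The high part held 3000 cells, of which 1373, in cluster 5, had a mitotic ratio of only 1.05. The low part held 8949 cells, of which 2573, in cluster 2, were led by histone genes and had a ratio of 0.943. Both parts thus held dividing cells, and the split parts these clusters by a small difference. None of 65 members with enough UMIs was at least 2-fold higher in the high part (1.69% of all 20627 genes were), and 2 were at most 0.5-fold (2.97% of all genes). EPHA3 stood at 11.9 against 25.1 CPM (ratio 0.474, 0.438 to 0.512) and SEMA3E at 1.30 against 2.66 CPM (0.490, 0.384 to 0.620). Single clusters weighed on both: cluster 6 held 2348 of the 4019 EPHA3 UMIs of the low part, and cluster 7 held 199 of its 426 SEMA3E UMIs. In the other low clusters EPHA3 stood at 5.37 to 20.6 CPM, and in the high clusters 4 and 5 at 13.9 and 7.61 CPM. The part of these clusters in the 2 ratios was not tested. DCC was just outside the limit at 48.9 against 93.7 CPM (0.522). SLIT1 had the highest ratio among those tested, 1.67 (1.33 to 2.08). EPHA4, EFNA5 and SEMA6A, the genes with the most UMIs of their families, had ratios of 1.00, 0.856 and 1.03. By UMIs per cell 1 member, SLIT1, was higher (3.11% of all genes were) and none lower (1.4%). With cluster 4, the cluster with the strongest mitotic markers, set against clusters with a mitotic ratio under 0.2, a comparison added after the data were seen, 1 member was higher and 4 were lower, against 2.31% and 4.47% of all genes.

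Within the forebrain class, clusters 6 and 7 differed in several members. Cluster 6 (1241 cells, led by C1orf61) and cluster 7 (994 cells, led by STMN4, CPNE4 and FGF17) were compared after their levels had been seen, so the values are a description. Of 61 members with enough UMIs, 10 were at least 2-fold higher in cluster 6 (9.55% of all 17191 genes were) and 8 at most 0.5-fold (5.79% of all genes). By UMIs per cell the counts were 6 and 14, against 3.73% and 15.2% of all genes, and cells of cluster 7 were deeper, at a median of 19927 against 13462 UMIs.

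UNC5C, a netrin receptor for repulsion (chr4:95162504-95549206), stood at 9.86 CPM in cluster 6 and 268 CPM in cluster 7, a ratio of 0.0368 (0.0315 to 0.0427), and between 108 and 155 CPM in the other forebrain clusters. EPHA3 showed the reverse, at 129 CPM in cluster 6 and 6.10 CPM in cluster 7, a ratio of 21.1 (17.7 to 25.4), with 5.37 to 20.6 CPM in the other forebrain clusters. It was the gene second to C1orf61 among the leading genes of cluster 6 although members took no part in the clustering. EFNA1 stood at 7.12 against 0.426 CPM, from 130 and 9 UMIs. Eph receptors thus divided: EPHA4 (485 against 222 CPM) and EPHB6 (14.8 against 4.35 CPM) were higher in cluster 6, while EPHA7 (80.9 against 271 CPM) and EPHA2 (11.2 against 42.3 CPM) were higher in cluster 7.

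Other systems divided in the same way. The receptors ROBO1 (284 against 142 CPM), ROBO2 (104 against 39.2 CPM), NRP1 (50.5 against 19.9 CPM), PLXNA2 (19.0 against 6.43 CPM) and PLXNC1 (41.8 against 13.5 CPM) were on the side of cluster 6, with the semaphorin SEMA5B (19.7 against 6.24 CPM). The ligands SLIT2 (131 against 300.1 CPM), SLIT3 (13.8 against 36.8 CPM), SEMA6A (189 against 488 CPM), SEMA3C (5.64 against 13.9 CPM) and SEMA3E (0.603 against 9.41 CPM) were on the side of cluster 7. UNC5D stood at 242 against 128 CPM and NTN1 at 40.8 against 22.6 CPM, between the limits. DCC was level at 103 against 110 CPM. Other genes moved with this contrast: the dorsal forebrain factor EMX2 stood at 135 against 13.8 CPM, DLX5 at 1.26 against 76.9 CPM, and TAGLN at 39.0 against 1856 CPM, towards the contractile class. Their part in the differences between members was not tested.

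**Figure D4:**
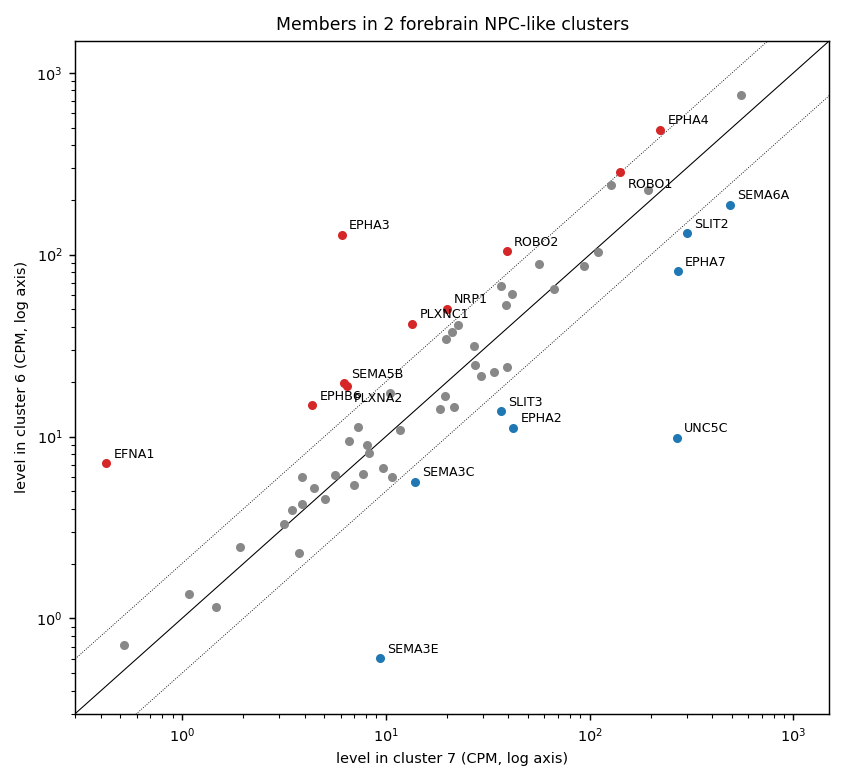
Level of the 61 members with enough UMIs in cluster 7 (horizontal, CPM, log axis) and cluster 6 (vertical, CPM, log axis), both forebrain NPC-like; the solid line is equality, dotted lines are 2-fold, and the 18 members outside them are named. UNC5C at 268 against 9.86 CPM and EPHA3 at 6.10 against 129 CPM lie farthest from the line among well-counted genes.

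The contractile class joined clusters of unequal quality. Cluster 8 (168 cells) had a median mitochondrial share of 0.137% of UMIs, against 4.40% to 5.92% in the other 9 clusters, and a median of 9605 UMIs against 47854 in cluster 3 (1701 cells). All members summed to 634 CPM in cluster 8 and 2882 CPM in cluster 3. The gap was widest for long genes: members of 200 kb or more summed to 248 against 1893 CPM, and members under 50 kb to 199 against 428 CPM. EFNA5 stood at 67.7 against 608 CPM and DCC at 11.4 against 143 CPM, whereas PLXND1 stood at 19.9 against 39.0 CPM. The part of RNA quality in these differences was not tested. Over all genes, those of 200 kb or more took 3.86% of UMIs in cluster 8 and 12.4% in cluster 3. With cluster 3 alone as the contractile class, an alternative added after the data were seen, the counts were again 7 higher and 28 lower, the same genes in each case. In cluster 8, SEMA3C (10.2 CPM), NRP2 (15.4) and PLXND1 (19.9) were more than 2-fold above the forebrain class (4.48, 5.63 and 4.29). EFNB2 (54.6 against 35.8 CPM), EPHA2 (28.4 against 22.5), SEMA3E (2.84 against 2.26, 5 UMIs) and SEMA3D (1.14 against 1.98, 2 UMIs) were not.

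**Figure D5:**
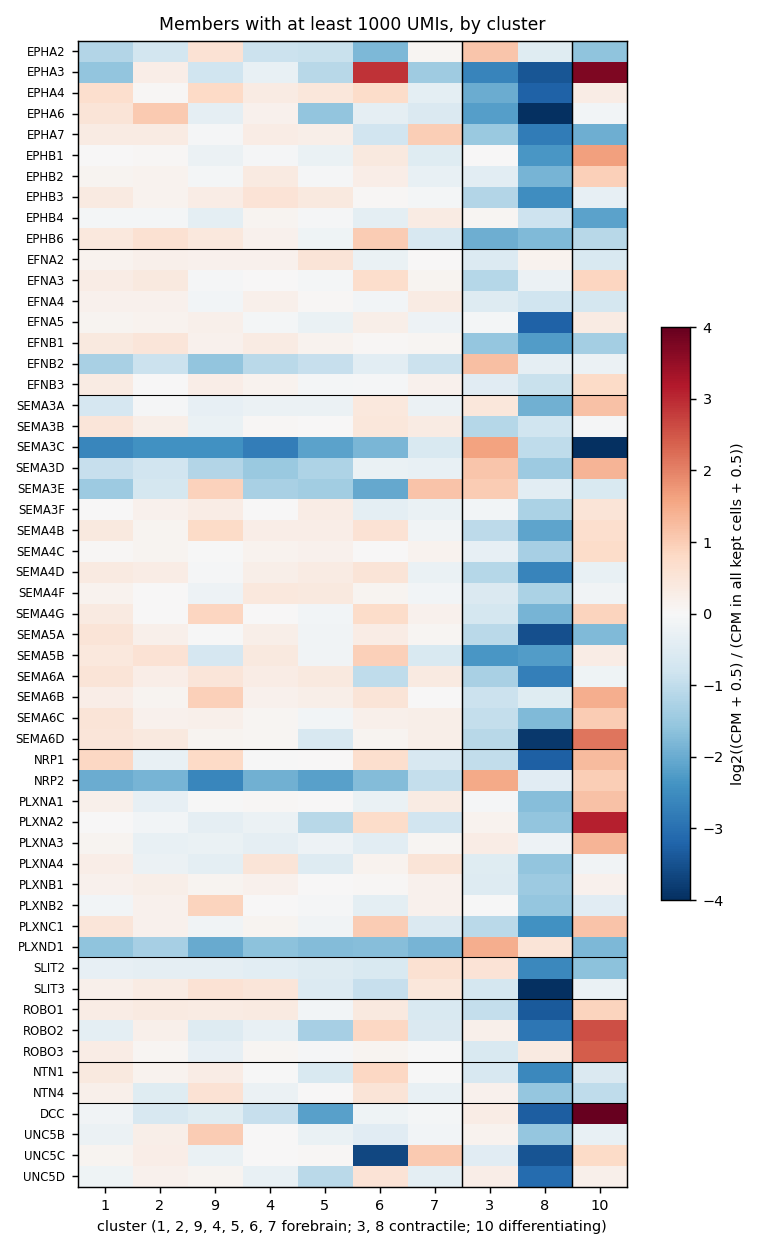
Level of the 55 members with at least 1000 UMIs in each of 10 clusters, as log2 of the ratio to all kept cells with 0.5 CPM added to both; black lines part the families (in the order Eph receptors, ephrins, semaphorins, plexins and neuropilins, Slits, Robos, netrins, DCC and UNC5) and the classes. EPHA3 is high in clusters 6 and 10, UNC5C low in cluster 6, SEMA3C, NRP2 and PLXND1 high in cluster 3, and most members low in cluster 8.

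Of 93 pathway genes outside the 69, 14 were higher and 17 lower in contractile than in forebrain cells, where 8.2% and 24.5% of all genes were. Unlike the members, pathway genes were not left out of the clustering, so they could help to form the classes they are compared in. Higher genes included NTNG1, a membrane-bound netrin relative, at 34.4 against 2.15 CPM (ratio 16.0), and MICAL2, a redox enzyme of the family that passes semaphorin signals to actin, at 7.83 against 0.430 CPM (18.2). DSCAM and L1CAM, adhesion molecules that join netrin and semaphorin receptors, had ratios of 11.7 and 11.6, and ARHGEF28 one of 11.9. MET, a receptor kinase that pairs with B-class plexins, stood at 7.15 against 0.625 CPM (11.4), and the GTPase gene RRAS, a target of plexins, at 43.2 against 5.47 CPM (7.90). Co-receptors and other ligands had 6 higher and 9 lower of 21, and small GTPases 3 and 1 of 10. Kinases and adaptors had 0 and 2 of 19, cytoskeletal effectors 3 and 2 of 17, and genes of Eph and ephrin processing 0 and 1 of 8.

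In differentiating cells 14 of 78 tested pathway genes were higher and 3 lower, where 6.14% and 14.5% of all genes were. LRRC4C, a netrin-G ligand, stood at 208 against 17.2 CPM (ratio 12.1), RGMB, a ligand of the DCC relative neogenin, at 72.3 against 13.1 CPM (5.53), and the adhesion molecule NCAM1 at 332 against 79.0 CPM (4.20). Higher genes made up 5 of 13 co-receptors and other ligands, 1 of 9 small GTPases, 1 of 18 kinases and adaptors, 4 of 14 cytoskeletal effectors and 1 of 8 genes of Eph and ephrin processing. Between the mitotic parts no pathway gene was higher and NTNG1 was lower, at 1.09 against 2.59 CPM.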

How the data were processed

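The authors mapped the reads of the 10x Genomics 3′ library to GRCh38 with Cell Ranger 7.0.1 and deposited raw counts (UMIs per gene and barcode) for called cells, with no normalization. Their Seurat 4.4.0 step was not used here. All barcodes carried 1 suffix, so loading wells could not be told apart. Barcodes with 2000 to 10000 genes and a mitochondrial share under 0.1, read as a fraction, were kept. Each cell was scaled to 10000 counts before a log transform. The 2000 most variable genes, members left out, gave 30 principal components, a graph of 20 neighbours and Leiden clusters at resolution 0.5 (scanpy 1.11.5 and leidenalg 0.10.2 in Python 3.11.15; intervals by scipy 1.17.1). Contractile and differentiating clusters needed 3 markers of that list, each at 20 CPM and 3-fold the other cells. Other clusters were called forebrain NPC-like when 3 forebrain and 3 progenitor markers reached 50 CPM. Mitotic parts were divided at a median marker ratio of 1. Scrublet, as built into scanpy, called 1 barcode, so doublets were not removed, and removal of the highest 8% of scores was an alternative.

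A level is the summed counts of a gene over all counts of a class, with an exact Poisson interval, and ratios have an exact conditional interval. The ratio script was tested on simulated data. Gene spans came from GENCODE v44. Named were members meeting the size rule, members with at least 10 UMIs in differentiating cells, the leading and rarest (under 20 UMIs) members of each family and partners of named genes. Named pathway genes were taken from the 12 with the largest ratios past the size rule, and 1 of these and 1 pathway list are not reported here. Members, lists and tests were chosen with earlier results of these data known.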

Additional observations from a re-analysis of the deposited data

How the results depend on the processing

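Members with enough UMIs for a contractile ratio numbered 60 to 68 under the alternatives, against 66. For contractile cells the count of higher members was 7, the same genes, under all alternatives but UMIs per cell, which gave 24. Lower members numbered 21 to 31 except by UMIs per cell (6) and at 3-fold (15). For differentiating cells higher members numbered 6 with at least 50 predicted UMIs, 23 with no minimum and 7 at 3-fold, against 12, and lower members 12 by UMIs per cell and 4 with members among the variable genes, against 7. For the mitotic parts higher members numbered 1 by UMIs per cell and 1 with cluster 4 against clusters of low ratio, against 0. Lower members, against 2, numbered 0 by UMIs per cell and at 3-fold, 1 with members among the variable genes and after thinning before clustering, 4 at resolution 1.0, with no minimum and with cluster 4 alone, 5 in thinned cells and 6 without the highest Scrublet scores. For cluster 6 over cluster 7, higher members numbered 6 by UMIs per cell, 5 at 3-fold, 28 at resolution 0.2 and 19 without the highest Scrublet scores, against 10, and lower members 14 by UMIs per cell and 4 at 3-fold, against 8. In these last clusterings (resolution 0.2 and Scrublet) the cluster that matched cluster 7 best, of 2365 and 1619 cells, was a contractile one. The counts of 28 and 19 therefore do not compare the same cells and are not read as a result about members. Other causes were not tested.

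Of 35 contractile ratios, 5 changed sign by UMIs per cell, to log2 values of 0.025 (NRP1), 0.095 (ROBO1), 0.22 (SEMA4G), 0.14 (SEMA6B) and 0.15 (SLIT1). At resolution 0.2, SEMA3E changed sign between the mitotic parts (0.63), and EPHA7 (0.85), ROBO2 (-0.16), SEMA6A (1.25) and SLIT3 (0.50) did so between the matched clusters. None of 19 differentiating ratios changed sign. The 107 differentiating cells limit these ratios by depth: 1.65 UMIs are expected there at 1 CPM. No paired analysis was possible because there was 1 library.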
